A study of Mus musculus with 4 samples.

Results

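ARRB1 and NRDC are genes that carry microRNAs inside them, and each was read by 1 spot on the nylon arrays of this study. ARRB1 encodes β-arrestin 1 and is the host of miR-326, while NRDC (written Nrd1 in older annotations) encodes nardilysin and is the host of miR-761. The members were chosen as the spots whose only gene symbol in the platform annotation is ARRB1 or NRDC, which gave 2 genes of the 6284 genes named by the array, human Entrez genes 408 and 4898. Neurons of the dorsal root ganglion (DRG) were taken from NIH Swiss mice at embryonic day 13.5 and cultured for 3 weeks in Campenot chambers, whose barriers let axons pass into a separate compartment while the cell bodies stay behind. The 4 samples were axons and cell bodies after 2 h of electrical stimulation, and axons and cell bodies of cultures left without stimulation. The division of non-neuronal cells had been inhibited early in culture. Medium free of serum and nerve growth factor was given the night before stimulation, and the methods do not say separately whether the unstimulated cultures had it too. Each condition is 1 array hybridized with 1 pool, of 3 coverslips per the sample records. For the nylon arrays the study's methods speak of RNA pools from 2 experiments per condition. With 1 array per condition there is no replicate array and no test of any difference. The precision of every value is limited by this number of arrays.

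β-arrestins bind G-protein coupled receptors that have been phosphorylated by receptor kinases. They uncouple these receptors from G proteins, bring them to clathrin-coated pits for endocytosis and serve as scaffolds for kinases. Nardilysin is a metallopeptidase of the M16 family, related to the insulin-degrading enzyme, that also increases the shedding of membrane protein ectodomains by ADAM proteases, and mice that lack it have thinner myelin. MicroRNAs within introns are often made from the host transcript, pair through their seed (bases 2 to 8) with sites in other mRNAs and reduce the stability or translation of those mRNAs. The arrays carry cDNA clones of mRNAs, so the values below are taken as levels of the host transcripts. The mature microRNAs were not measured on these arrays. The annotation names human genes while the RNA is from mouse, and how well each clone reads the mouse transcript was not tested.

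The study looked in the untranslated regions of transcripts destabilized in hippocampal neurons for motifs that match microRNA seeds, and the sequences of the microRNAs hosted by ARRB1 and NRDC are shown because the seed ties them to that search. The mature mouse sequences are from RefSeq (GRCm38.p6), 5′ to 3′, with the seed in capitals. The sequence of miR-330-5p, whose host Eml2 was not analysed here, is added because it shares its seed with miR-326-3p.
mmu-miR-326-3p: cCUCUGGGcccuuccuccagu
mmu-miR-330-5p: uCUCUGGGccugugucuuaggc
mmu-miR-761: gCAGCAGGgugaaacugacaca
In a table of 1738 mature mouse miRNAs, miR-326-3p and miR-330-5p were the only ones with their seed. The seed of miR-761 was shared with 1 other, miR-214-3p. The hairpin of miR-326 lies on the plus strand at chr7:99552269-99552363, within the span of Arrb1 at chr7:99535147-99606772. The mature miR-326-3p takes up chr7:99552328-99552348. The hairpin of miR-761 lies on the plus strand at chr4:109017655-109017730, within Nrd1 at chr4:109000655-109061777, which is also on the plus strand, and its mature strand is at chr4:109017669-109017690. Both hairpins start at similar distances from the lower-coordinate end of their host, 17122 bases in Arrb1 and 17000 bases in Nrd1, or 23.9% and 27.8% of the host's span. The study places both in introns, and exon coordinates were not used here.

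The deposited values are raw spot intensities with no scaling across arrays. The median over the 9600 spots lay between 89.3 and 159.7 on the 4 arrays. To set arrays side by side, each intensity was turned into a z-score of its log10 value over all spots of its array, so that 0 is the array mean. The unnamed spots at places 25 and 50 of the 50-spot rows, 384 in all, were used as background for the axon arrays, with a 95th percentile of 42.5 in stimulated and 21.9 in unstimulated axons. On both cell body arrays that percentile is 10, a fill-in value, and gives no measure of background there. Of 20 sensory neuron markers, 7 were measured, among them GAP43, UCHL1 and STMN2, and all 7 were above these spots on both axon arrays, while markers such as CALCA and TRPV1 were not analysed here. The 5 Schwann cell markers measured of 10 were above as well. So were 5 of 6 fibroblast markers (of 10 listed) in stimulated and 3 in unstimulated axons, 6 of 6 macrophage markers (of 10 listed) and 0 of 2 endothelial markers (of 7 listed). Over the 4 arrays the summed intensity ran from 3499 to 4957 for the sensory neuron markers, 1160 to 1880 for Schwann cell, 13565 to 18720 for fibroblast, 15198 to 18824 for macrophage and 15.1 to 67.1 for endothelial cell markers. Sums over different clones do not compare the amounts of the cell types. In stimulated axons the brightest marker gave 2392 of 3542 for sensory neuron, 10815 of 15578 for fibroblast and 16465 of 18374 for macrophage. Medians on that array were 126 for sensory neuron, 163 for Schwann cell, 83.6 for fibroblast, 303 for macrophage and 33.6 for endothelial cell markers. The part of these cell types in the values below was not tested.

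NRDC was above the array median on every array and well above the unnamed spots in axons. Its intensity was 523 in stimulated axons, 421 in unstimulated axons, 1002 in stimulated cell bodies and 1009 in unstimulated cell bodies. The cell body arrays read higher than the axon arrays, and stimulated and unstimulated cultures were close to each other within each compartment. Against its own array, NRDC was brighter than 79.7% and 78.7% of all spots in stimulated and unstimulated axons and than 81.3% and 81.5% in stimulated and unstimulated cell bodies. As z-scores these levels are 0.94 in stimulated and 0.89 in unstimulated cell bodies, 0.74 in stimulated and 0.69 in unstimulated axons.

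ARRB1 was dim on every array. Its intensity was 48.6 in stimulated axons, 25.2 in unstimulated axons, 21.8 in stimulated cell bodies and 77.3 in unstimulated cell bodies. Unstimulated cell bodies read highest and stimulated cell bodies lowest, with both axon samples between them. All 4 values lay below the array median, at 0.474, 0.283, 0.185 and 0.484 times the median in the same order, and between 10.5% and 22.9% of all spots were dimmer. In axons the ARRB1 spot was only slightly above the unnamed spots, at 1.14 times their 95th percentile in stimulated and 1.15 times in unstimulated axons. Levels of ARRB1 and NRDC are not set against each other as amounts of RNA, since they come from different clones.

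**Figure D1:**
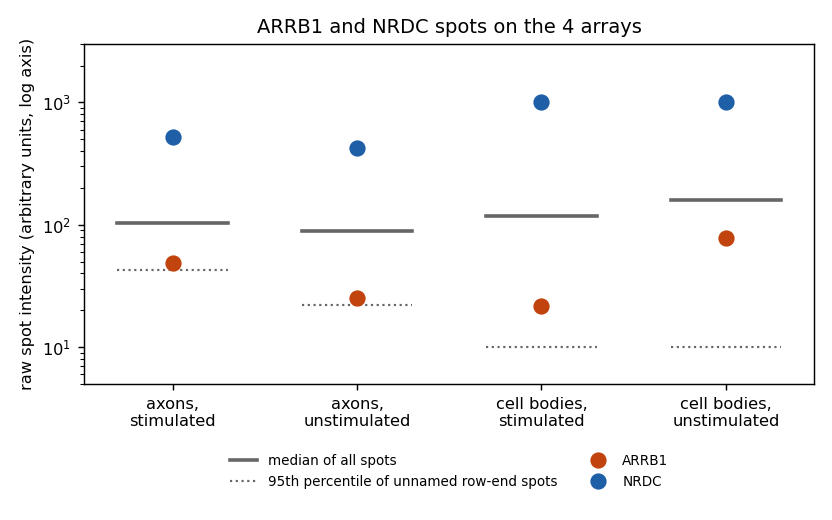
Raw spot intensity (arbitrary units, log axis) of ARRB1 (orange) and NRDC (blue) on each of the 4 arrays, with the median of all spots (solid line) and the 95th percentile of the unnamed row-end spots (dotted line). NRDC lies above the array median on all 4 arrays, between 421 and 1009, and ARRB1 below it, between 21.8 and 77.3, close to the dotted line on both axon arrays.

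The first comparison asks whether 2 h of stimulation goes with other transcript levels in axons. For each spot a z ratio was computed, in which the z-score on the first array minus that on the second is scaled by the SD of such differences across all 9600 spots, and a size of 1.4 or more was taken as past the threshold, after the methods of the study. Both members have 1 clone each, so the spread beside their values is the SD between clones of the same gene over 3700 clones of 1488 other genes. It comes from the same 2 arrays and does not cover variation between arrays or cultures. It is taken over clones of every brightness, and the wider spread among dim clones, such as that of ARRB1, is given below. ARRB1 had a z ratio of 0.92 ± 0.87 (SD between clones) in stimulated against unstimulated axons, and its intensity was 1.92 times as high, or 1.68 times with each array centred on its median. NRDC had a z ratio of 0.20 ± 0.87, with an intensity 1.24 times as high, or 1.08 times when centred. Neither member passed the threshold, which 10.2% of the 9600 spots did, 4.47% upward and 5.69% downward.

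In cell bodies, ARRB1 was lower with stimulation and NRDC was nearly level. The z ratio of ARRB1 was −1.80 ± 0.75 (SD between clones), past the threshold, with an intensity 3.54 times as high without stimulation as with it, or 2.62 times when the arrays were centred. Its reading in stimulated cell bodies, 21.8, was low, and that array gives no measure of background, so the size of these folds is uncertain. Of all spots 6.28% passed the threshold in either direction, 2.27% upward and 4.01% downward, and 240 of the 9600 spots were at or below the value of ARRB1. NRDC had a z ratio of 0.22 ± 0.75, under the threshold. Its raw intensity was 0.993 times that without stimulation and 1.34 times when centred, because the median of the stimulated array was lower, and its sign turned with robust z-scores (−0.60), quantile normalization (−0.04) and loess (−0.02).

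The value of ARRB1 in cell bodies has to be read with its brightness. When the spots were split by mean z-score over the 4 arrays into 5 groups of 1920, it lay in the dimmest group, where 16.4% of spots were at −1.4 or lower and 10.9% at 1.4 or higher in the same comparison. Between clones of the same gene in that group the SD was 1.27, so that the z ratio of ARRB1 was 2.40 times the SD over all clones and 1.42 times the SD over dim clones. NRDC lay in the brightest group, where 0 of 1920 spots passed the threshold in cell bodies and the SD between clones was 0.192, close to the size of its own z ratio.

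**Figure D2:**
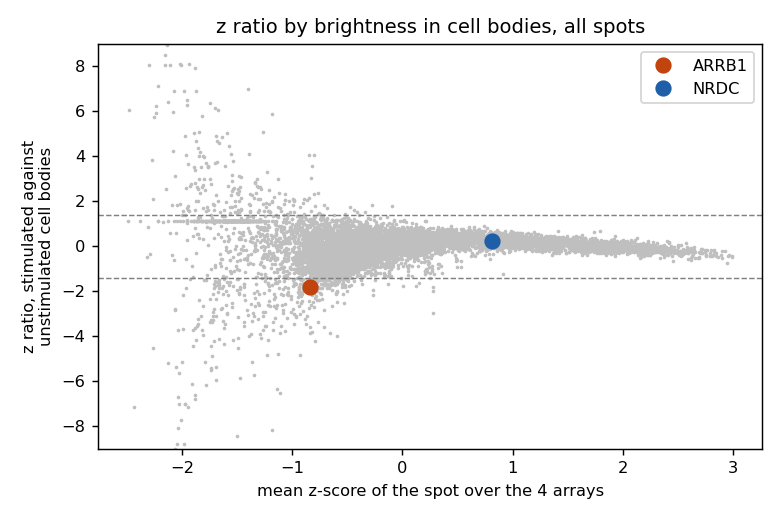
z ratio of stimulated against unstimulated cell bodies (vertical axis) of all 9600 spots (grey) by their mean z-score over the 4 arrays (horizontal axis), with ARRB1 in orange, NRDC in blue and the threshold of 1.4 in size dashed. The spread widens among dim spots, where ARRB1 lies at −1.80, and is narrow among bright spots, where NRDC lies at 0.22, with values beyond 9 in size outside the axis.

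ARRB1 and NRDC also differed in how the 2 compartments compared. In unstimulated cultures both members were lower in axons than in cell bodies. The z ratio of ARRB1 was −1.14 ± 0.79 (SD between clones), where its intensity was 25.2 on the axon and 77.3 on the cell body array. That of NRDC was −0.53 ± 0.79, where the intensities were 421 and 1009. In stimulated cultures NRDC was also at −0.53 ± 0.84, with 523 and 1002, but at 0.31 with robust z-scores. ARRB1 was on the other side there, at 0.74 ± 0.84, where the axon array read 48.6 and the cell body array 21.8. None of these 4 values passed the threshold. ARRB1 passed it under 2 of 12 other scalings or filters in unstimulated cultures (−1.44 and −1.52) and under 3 in stimulated ones, among them 1.49 with spots above 10 on both arrays. Of all spots 8.82% did so in unstimulated cultures, 5.2% upward and 3.62% downward, and 10.5% in stimulated cultures, 4.77% upward and 5.69% downward. The unstimulated arrays and the stimulated arrays of these comparisons also serve in the 2 stimulation comparisons, so the 4 z ratios of a gene are not independent of each other.

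**Figure D3:**
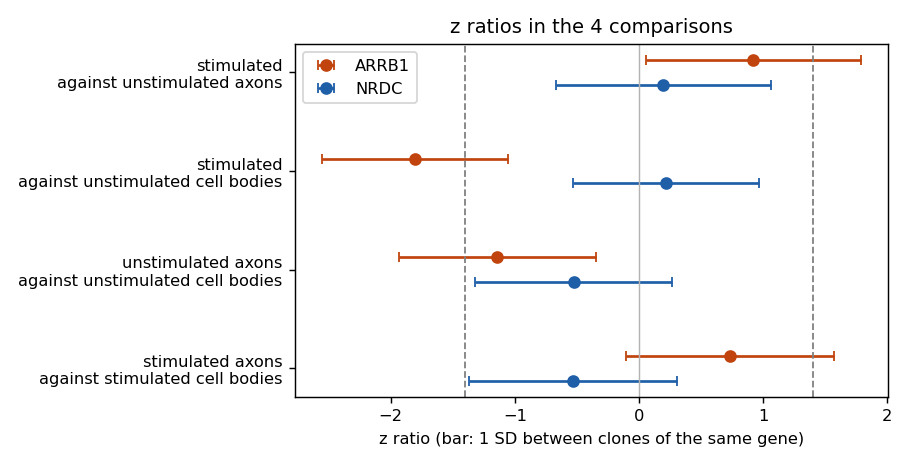
z ratio (horizontal axis) of ARRB1 (orange) and NRDC (blue) in the 4 comparisons, with a bar of 1 SD between clones of the same gene on each side and the threshold of 1.4 in size dashed. Only ARRB1 in stimulated against unstimulated cell bodies lies past the threshold, at −1.80, and its bar reaches back across it. The bars are taken over clones of every brightness, and the SD over dim clones, such as that of ARRB1, is wider.

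Taken as the axon response minus the cell body response, the z-score difference was 0.71 for ARRB1 and −0.0048 for NRDC. Scaled by its SD over all spots, that of ARRB1 was 1.97 ± 0.84 (SD between clones), which 257 spots reached or exceeded, and that of NRDC was −0.01. Of the 9600 spots 79 were at least as extreme as ARRB1 in both compartments, or 0.823%. Of all spots 22.3% had a positive z ratio in axons and a negative one in cell bodies, like ARRB1, and 27.6% of those in its brightness group. Values of 1.4 or more on this scale were found for 4.69% of all spots and 17.9% of the spots in that group. Each compartment gives 1 difference for a gene, so the difference between compartments was not tested.

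**Figure D4:**
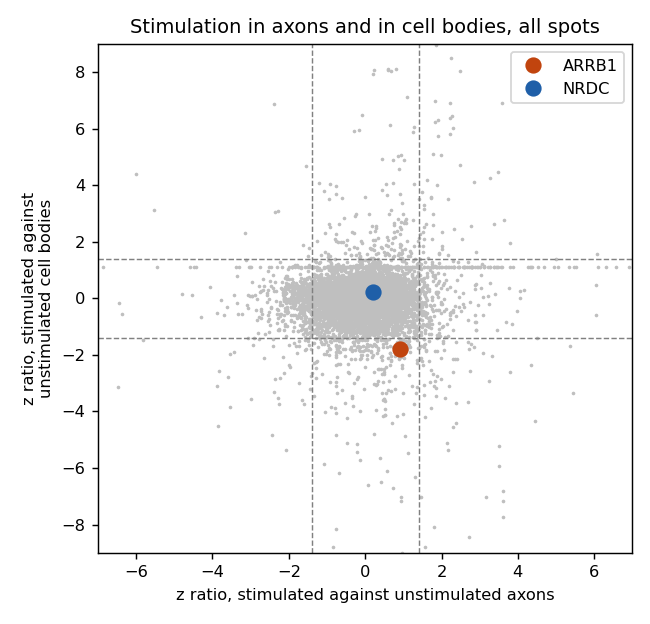
z ratio of stimulated against unstimulated cell bodies (vertical axis) by that of stimulated against unstimulated axons (horizontal axis) for all spots (grey), with ARRB1 in orange, NRDC in blue and the threshold of 1.4 in size dashed; 28 spots lie outside the axes. ARRB1 lies to the right and low, at 0.92 for axons and −1.80 for cell bodies, and NRDC near 0, at 0.20 and 0.22.

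Neighbouring spots on the membrane were examined because a very bright spot can add signal to those beside it. The spot before NRDC in file order, in the same 50-spot row, is RPS16, a protein of the small ribosomal subunit and 1 of 11 spots above 20000 on all 4 arrays. RPS16 read 23463 in stimulated axons, 23699 in unstimulated axons, 26668 in stimulated and 24394 in unstimulated cell bodies. NRDC was 2.23%, 1.78%, 3.76% and 4.14% of these values in the same order, so its share of RPS16 was lower in axons. RPS16 itself was higher in axons than in cell bodies relative to its arrays, with a z ratio of 1.10 in unstimulated cultures, while NRDC was lower. The named spots that follow such bright spots number 10, NRDC included, and 8 of them, NRDC counted, were at or below the intensity of NRDC on each array. Their median was 66.2 and 91.0 in stimulated and unstimulated axons, against 107.7 and 94.3 for all named spots. In stimulated and unstimulated cell bodies it was 238 and 264, against 126.6 and 169.2, with 5 of the 10 spots above the latter values on each array. The 10 named spots that come before such bright spots had lower medians than all named spots on every array. These were 44.0 and 11.6 in stimulated and unstimulated axons, and 10 and 32.55 in stimulated and unstimulated cell bodies. On the other side of RPS16, CRACR2A, a calcium sensor of store-operated calcium entry, read between 218 and 384. The spot after NRDC, SLC61A1, was dim, at 50.8 in stimulated axons, 59.3 in unstimulated axons, 50.6 in stimulated cell bodies and 164.5 in unstimulated ones. The part of RPS16 in the level of NRDC was not tested further.

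ARRB1 has dim neighbours. The deacetylase SIRT2, the spot before it, read 68.0 in stimulated axons, 44.7 in unstimulated axons, 33.5 in stimulated and 43.6 in unstimulated cell bodies, and S100A14, the spot after it, 69.0, 74.9, 66.2 and 98.9. In stimulated against unstimulated cell bodies, SIRT2 had a z ratio of 0.31 and S100A14 one of −0.12, both closer to 0 than ARRB1. Beside NRDC, RPS16 was at −0.20 in that comparison, and the dim spot SLC61A1 at −1.77, close to ARRB1. What dim spots share in this comparison was not tested. Brighter spots lie 2 places away on both sides, ASMT at 899 to 3441 and DBI at 522 to 828.

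**Figure D5:**
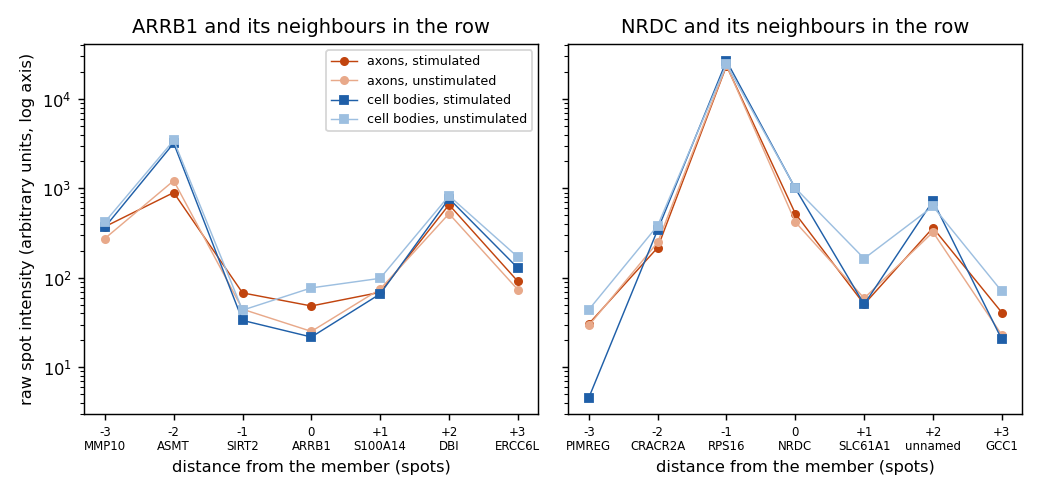
Raw spot intensity (arbitrary units, log axis) of the 3 spots on each side of ARRB1 (left) and NRDC (right) in their 50-spot rows, by distance in spots, on the 4 arrays (orange for axons, blue for cell bodies, darker for stimulated). RPS16, next to NRDC, is above 20000 on all 4 arrays, while both spots next to ARRB1 are below 100.

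The genes whose 4 levels were most like those of each member were found by the Euclidean distance between z-scores over the 4 arrays, with 1 value per gene and 6282 genes compared. For NRDC the nearest was APP, the amyloid precursor protein, at a distance of 0.03. Its intensity was 531 in stimulated axons, 414 in unstimulated axons, 953 in stimulated cell bodies and 1019 in unstimulated cell bodies, each close to that of NRDC. SFXN3, ETFDH, PLAUR and GPAT3 followed at 0.07 to 0.08. For ARRB1 the nearest was SATB1, a chromatin organizer, at 0.06, with 46.4 in stimulated axons, 23.2 in unstimulated axons, 22.2 in stimulated cell bodies and 77.8 in unstimulated cell bodies. PITHD1, MSRB1, RNLS and PCDHB5 followed at 0.06 to 0.15. All 5 genes nearest to ARRB1 were below −1.4 in stimulated against unstimulated cell bodies, from −2.17 for MSRB1 to −1.45 for RNLS, which follows from their likeness to it. Within a distance of 0.25 lay 34 genes for ARRB1 and 107 for NRDC.

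The other genes of the pathways are described as means over their clones, beside all 6284 genes, of which 7.83% were past the threshold in stimulated against unstimulated axons and 4.34% in the same comparison of cell bodies. In axons against cell bodies 6.22% were past it without stimulation, 3.34% higher and 2.88% lower, and 7.43% with it, 2.64% higher and 4.79% lower. Of the arrestins and receptor kinases, 4 of 16 were measured, and ARRB1 alone passed the threshold. ARR3, the arrestin of cone photoreceptors, had intensities of 105 in stimulated axons, 76.6 in unstimulated axons, 151 in stimulated and 169 in unstimulated cell bodies. Its z ratios upon stimulation were 0.23 for axons and 0.35 for cell bodies, without the sign change seen for ARRB1. GRK6, a receptor kinase, was bright, with 2165 to 3307 over the 4 arrays and z ratios of 0.29 in axons and 0.18 in cell bodies. ARRDC3, an α-arrestin that acts in the trafficking and ubiquitination of receptors, was brighter still at 5248 to 6998 and had z ratios of 0.66 and −0.02.

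Among the arrestin partners in receptor endocytosis, 12 of 18 genes were measured and none was past the threshold upon stimulation in either compartment. Their medians were 0.32 in axons and 0.03 in cell bodies, against 0.02 and 0.05 for all genes. Without stimulation 2 were higher in axons than in cell bodies, the clathrin light chains CLTB and CLTA. CLTB was at 1.86 as the mean of a bright clone and a dim one, the dim one reading 193 in unstimulated axons and 36.9 in unstimulated cell bodies. CLTA had a clone at or below the level of the unnamed spots on all 4 arrays and gets no size. The brightest of this list by z-score was AP2B1, the β-subunit of the AP-2 adaptor that binds β-arrestin, with z ratios of 0.47 and 0.05, followed by CLTB and by AP2M1, another AP-2 subunit, at 0.17 and −0.02 over 3 clones of unequal brightness. Of the 12 genes, 4 had a positive z ratio in axons and a negative one in cell bodies like ARRB1, namely AP2M1, AP2S1, DAB2 and MDM2. The same signs were held by 22.3% of all spots, unnamed ones included, and by 27.6% in the brightness group of ARRB1. In the other lists they were held by 2 of 4 arrestins and receptor kinases, ARRB1 counted, and 2 of 10 signalling partners. Counts were 0 of 5 for the M16 family, 1 of 6 for ectodomain shedding, 5 of 10 for the microRNA genes and 20 of 92 for the predicted targets. MDM2, a ubiquitin ligase of β-arrestin 2, had the lowest value of the list in cell bodies, at −1.10, and was at 0.88 in axons, both under the threshold. AP2S1, DAB2 and MDM2 are named after their values were seen.

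Of the arrestin partners in signalling, 10 of 20 genes were measured. PDE4D, a cyclic AMP phosphodiesterase that β-arrestins bring to receptors, was lower in stimulated than in unstimulated axons, at −1.51, with 46.9 against 70.5. It was at −2.25 in axons against cell bodies with stimulation, where the cell bodies read 190, and at −0.07 in stimulated against unstimulated cell bodies. Both values past the threshold use the stimulated axon reading of 46.9, only slightly above the 95th percentile of the unnamed spots there, 42.5. DVL2, of Wnt signalling, was past the threshold upward between axons and cell bodies in unstimulated and in stimulated cultures. It was not above the unnamed spots on either axon array. In stimulated and unstimulated cell bodies DVL2 read 3.54 and 5, below the fill-in value of 10, so it gets no size. The other 8 stayed under the threshold in all 4 comparisons, among them PPP2R1A, a scaffold of phosphatase 2A and the brightest of the list, at 0.23 in axons and 0.07 in cell bodies upon stimulation, and the kinase MAPK3 at 0.07 and 0.67.

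Of the M16 metallopeptidase family, 5 of 7 genes were measured. PITRM1, a mitochondrial peptidase, was at 0.39 and 0.38 upon stimulation in axons and cell bodies and at −0.20 and −0.18 between axons and cell bodies, unstimulated and stimulated. PMPCB, of the mitochondrial processing peptidase, was at −0.46, −0.49, −0.41 and −0.39 in the same order. UQCRC2, a core subunit of respiratory complex III, was under the threshold in all 4 comparisons and had a clone not above the unnamed spots in stimulated axons. UQCRC1, the other core subunit, was past the threshold in stimulated against unstimulated axons and against stimulated cell bodies, but read 43.1 in stimulated axons and 10.8 or the fill-in value of 10 elsewhere, so no size is given.

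Of the genes of ectodomain shedding, 6 of 17 were measured, and the proteases ADAM17 and ADAM10 were not analysed here. NRG1, a growth factor released by shedding that acts on Schwann cells, was the brightest at 5744 to 8667 and had z ratios of 0.18 in axons and 0.06 in cell bodies upon stimulation. BACE2, a protease related to β-secretase, was at 0.21 and 0.15, and APP at 0.27 and 0.10, values like those of NRDC. TGFA, a growth factor shed by ADAM17, was lower and TIMP3, an inhibitor of that protease, higher past the threshold in stimulated against unstimulated axons. TGFA was not above the unnamed spots in stimulated axons, and TIMP3 on neither axon array, so no size is given. ERBB3, a neuregulin receptor, was at −1.22, under the threshold.

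The genes that make and use microRNAs had 10 of 20 members measured. DGCR8, which recognizes the hairpin in the nucleus, read 3610 to 4759 as a mean over 2 clones, with z ratios of 0.04 in axons and 0.15 in cell bodies upon stimulation. AGO2, the Argonaute that cleaves targets, read 2728 to 3620 as a mean over 2 clones, with 0.21 and −0.13. These means rest on 1 bright clone each, since the dimmer clone read 281 to 587 for DGCR8 and 36.8 to 62.1 for AGO2. TARBP2, a partner of Dicer, was past the threshold upward in stimulated against unstimulated axons and downward in unstimulated axons against unstimulated cell bodies, but its unstimulated axon spot read 10.2 and was not above background, so no size is given. TSNAX, a partner of translin, was at 1.65 in axons against cell bodies without stimulation and under the threshold in stimulated against unstimulated axons, with 212 against 314. The median of the list was 0.23 in axons and −0.11 in cell bodies upon stimulation, against 0.02 and 0.05 for all genes.

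The predicted targets of miR-326-3p and miR-330-5p were taken from the study's list, of which 92 genes, or 31.5%, were measured, matched by Entrez ID. In stimulated against unstimulated axons 4 were higher and 5 lower past the threshold, where 2.86% and 4.96% of all genes were, and the median was 0.21 against 0.02. In cell bodies 1 was higher and 3 lower, beside 1.37% and 2.98% of all genes, and the median was 0.08 against 0.05. Of those above the unnamed spots on both axon arrays, the elongation factor ELOF1 at 1.42 and the homeobox gene OTP at 2.06 were higher in stimulated axons. The ubiquitin-conjugating enzyme UBE2R2 at −2.42 and SCNM1, a splicing factor, at −1.73 were lower there. OTP read 24.3 in unstimulated axons, only slightly above the 95th percentile of the unnamed spots on that array, 21.9. KLHL14 and the transporter SLCO3A1 were lower past the threshold in stimulated cell bodies, but read 10.7 and 16.9 there, close to the fill-in value of 10, so no size is given. Without stimulation 1 target was higher in axons than in cell bodies, VTI1A, a SNARE protein, with 286 against 176, and 1 lower, MIEF1, which had a clone not above the unnamed spots on both axon arrays. With stimulation 3 were higher in axons than in cell bodies, EPB41L1, SLCO3A1 and KLHL14, which read 19.6, 16.9 and 10.7 in stimulated cell bodies and get no size, and 3 lower, UBE2R2 at −1.88 and the spots of GFAP and GPI, which were not above background in stimulated axons. The other genes past the threshold, PDIA3, RBFOX2 and SLC27A4, were not above the unnamed spots on at least 1 axon array. The list for miR-761 was at hand only in part and was not used.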

How the data were processed

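RNA from axons and cell bodies was amplified, labelled with 33P and hybridized to nylon membranes of cDNA clones, which were scanned by phosphor imaging. The authors deposited each spot's intensity without normalization, in 2 tables whose 38400 values were found equal. The sources used here do not state how background was treated. Genes were taken from the platform's annotation, in which 8496 spots name 1 gene. Lists were matched by symbol, and predicted targets by Entrez ID. The 50-spot row was inferred from the regular unnamed places in the file, since the sources used here do not describe the physical layout.

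z-scores of log10 intensity and z ratios were computed over all spots, and clones of a gene were averaged. Clones of the same gene gave the SD between clones, which does not cover variation between arrays or cultures. With 1 array per condition nothing was tested. Members and lists were chosen with earlier results of these data known. Named are both members, the 5 genes nearest to each, the spots beside them, and listed genes past the threshold and up to 4 further of each list by brightness. ASMT, DBI, CRACR2A, AP2S1, DAB2 and MDM2 fall outside this rule. Values were also computed with 12 other scalings or filters, at thresholds of 1.3 and 2, and with 1 background subtraction chosen after seeing the data. The 12 include the other deposited table, whose values are equal and cannot differ. The intensity of 20000 for very bright spots and the distance of 0.25 were chosen after seeing the data.

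The work was done in R 4.3.3 (limma 3.58.1) and Python 3.11.15 (numpy 2.4.6, pandas 2.3.3). The computation of the z ratio was checked on simulated data with known changes and the same noise for all spots. That setting leaves out the wider spread of dim spots, so it does not bear on the values of the members.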

Additional observations from a re-analysis of the deposited data

Results flagged for a closer look

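ARRB1 was singled out because it lay on opposite sides of 0 in the 2 compartments, with a z ratio of 0.92 in stimulated against unstimulated axons and −1.80 in stimulated against unstimulated cell bodies. The value in cell bodies rests on a low reading of 21.8 with stimulation, on an array without a measure of background. The axon response minus the cell body response, scaled by its SD over all spots, was 1.97. This difference was not tested, since each compartment holds 1 pair of arrays.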

How the results depend on the processing

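The z ratio of ARRB1 in stimulated against unstimulated cell bodies kept its sign under all 12 alternatives that gave a value. That sign was fixed in advance for the other deposited table, whose values are equal. It was also fixed for the undivided difference and for 1 value per gene, which only rescale the same difference of a gene with 1 clone. The z ratio of ARRB1 was past the threshold under 11 of the 12, the equal table counted. It was at −0.47 with the z-score difference left undivided, a smaller scale by construction. It was −2.94 with spots above 10 on both arrays and −2.91 with the median of the unnamed row-end spots subtracted, an alternative chosen after seeing the data, and the cause was not tested. In axons against cell bodies without stimulation, ARRB1 passed the threshold with 1 value per gene (−1.44) and with that subtraction (−1.52). With stimulation it passed with log2 ratios (1.36, threshold 1), spots above 10 (1.49) and that subtraction (1.47). NRDC stayed under the threshold in all 4 comparisons under all 13 alternatives. Its value in stimulated against unstimulated cell bodies turned to −0.60 with robust z-scores, and that in stimulated axons against stimulated cell bodies to 0.31, and the cause was not tested. ARRB1 has no value with spots above the array mean only, and leaving out a clone was not run because each member has 1. No paired analysis was possible because each condition has 1 array.

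The number of spots past the threshold, in axons and in cell bodies upon stimulation and then between axons and cell bodies, unstimulated and stimulated, was 975, 603, 847 and 1004. It was 37, 62, 111 and 91 with the difference left undivided, 1820, 2425, 2064 and 2352 with robust z-scores, and 387, 345, 403 and 463 at a threshold of 2. With log2 ratios it was 1371 and 2021 in the last 2 comparisons, with normexp 1546 in cell bodies and 1408 without stimulation, with spots above 10 on both arrays 1154 in cell bodies, and with spots above the array mean 451, 464 and 491 in the comparisons other than that in cell bodies.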
